A study of Mus musculus with 6 samples.

Results

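A group of 9 genes that place lymphocytes in, or release them from, lymphoid organs was followed in T cells lacking the microRNA miR-142. They were the chemokine receptors Ccr7, Cxcr5, Cxcr4, Cxcr3 and Ccr9, the oxysterol receptor Gpr183, the sphingosine-1-phosphate receptors S1pr1 and S1pr4, and Dapl1. Dapl1 (death associated protein like 1) is not a receptor, and it is known as a gene of resting T cells. Every probe set that the platform annotation assigns to 1 of these genes was taken, which gave 14 probe sets for 9 genes out of 45037 probe sets and 18193 genes. Ccr9 had 5 probe sets, Gpr183 had 2 and each of the others had 1, and 0 of the 14 are also assigned to another gene.

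The 3 miR-142 KO mice (KO) and 3 WT littermates (WT) were C57BL/6 males aged 10 weeks, and the labels name no treatment. T cells were taken from each spleen by negative selection, and the labels give no subset. RNA from each mouse was amplified with oligo(dT) and random primers and hybridized to 1 Affymetrix 1-colour array. Values are log2 intensities of probe sets as deposited, so a difference of 1 is a 2-fold change, and levels of different probe sets cannot be set against each other. The labels do not say how the miR-142 gene was disrupted. The KO label is not limited to T cells, so the other cells of these mice may lack miR-142 too.

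Lymphocytes find their place in the spleen and lymph nodes by G protein-coupled receptors that read gradients of chemokines, oxysterols and lipids. CCR7 draws naive T cells into the T cell zone, CXCR5 and GPR183 guide cells toward and along the edge of B cell follicles, and S1PR1 lets lymphocytes leave toward the blood. FOXO1 and KLF2, transcription factors of resting T cells, are known to promote expression of S1pr1 and Ccr7.

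miR-142 is made across the blood lineages, and both strands of its hairpin are loaded into silencing complexes. The mature sequences that the KO cells should lack are shown with the seed, bases 2 to 8, in capitals. They are RefSeq sequences at chr11:87756903-87756925 and chr11:87756867-87756887 of GRCm38.p6, plus strand.
mmu-miR-142a-3p: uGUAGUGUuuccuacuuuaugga
mmu-miR-142a-5p: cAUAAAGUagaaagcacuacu
The 2 seeds differ. Target sites in the transcripts of the 9 genes were not analysed here.

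The transcript listed as Mir142, the microRNA's host, had 5.97, 5.88 and 5.90 in KO, against 7.93, 8.13 and 7.67 in WT, and whether its probe set lies in the disrupted part is not known here. Array medians lay between 5.70 and 5.77, and correlations across probe sets were 0.986 to 0.995 between KO arrays and 0.994 to 0.996 between WT arrays. The T cell markers stood high in both groups but lower in KO: all 10 measured markers fell, and their mean was 9.23 to 10.62 on the KO arrays and 12.01 to 12.08 on the WT arrays. Markers of several other cells were higher on the KO arrays. Of 12 neutrophil markers 10 rose (mean 10.27 to 13.07 in KO, 6.27 to 7.33 in WT), of 11 mast cell, basophil and eosinophil markers 9 rose (9.17 to 9.63 in KO, 5.33 to 5.43 in WT), and 6 of 6 erythroid markers rose (9.71 to 10.92 in KO, 6.73 to 7.22 in WT). Of 8 monocyte and macrophage markers 6 rose, and of 7 dendritic cell markers 4 rose. None of 9 B cell markers passed the test, with means of 6.23 to 7.30 in KO and 6.04 to 6.41 in WT. The median difference of the B cell markers was -0.06, and the largest was that of Ebf1, at 2.95 with an SD of 3.15 between KO arrays and an adjusted p = 0.15 (limma). In NK cell markers 4 of 6 fell. KO replicate 2 had the lowest T cell marker mean and the highest B cell (7.30) and erythroid (10.92) means. Its mean over the immature thymocyte list was 8.70, where the other KO arrays had 7.34 and 7.41 and the WT arrays 7.14 to 7.26. Within that list the spread between KO arrays was largest in Rag1 (SD 3.00) and Rag2 (SD 2.16). Ptcra did not pass (-0.15, SD 0.15 in KO) and Cd8b1 fell by 2.63, so this mean does not identify thymocytes. KO replicate 1 had the highest neutrophil mean. Signs of RNA quality also moved with genotype. The 18S ribosomal control was 7.86 (KO replicate 1), 9.15 and 9.19 in KO, against 9.47 to 9.66 in WT. For Actb, the 3' control probe set stood above the 5' one by 0.32 to 0.40 in KO, against 0.16 to 0.23 in WT. The part of these differences in the results was not tested, and in bulk RNA fewer cells of a type and less RNA per cell cannot be told apart.

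**Figure D1:**
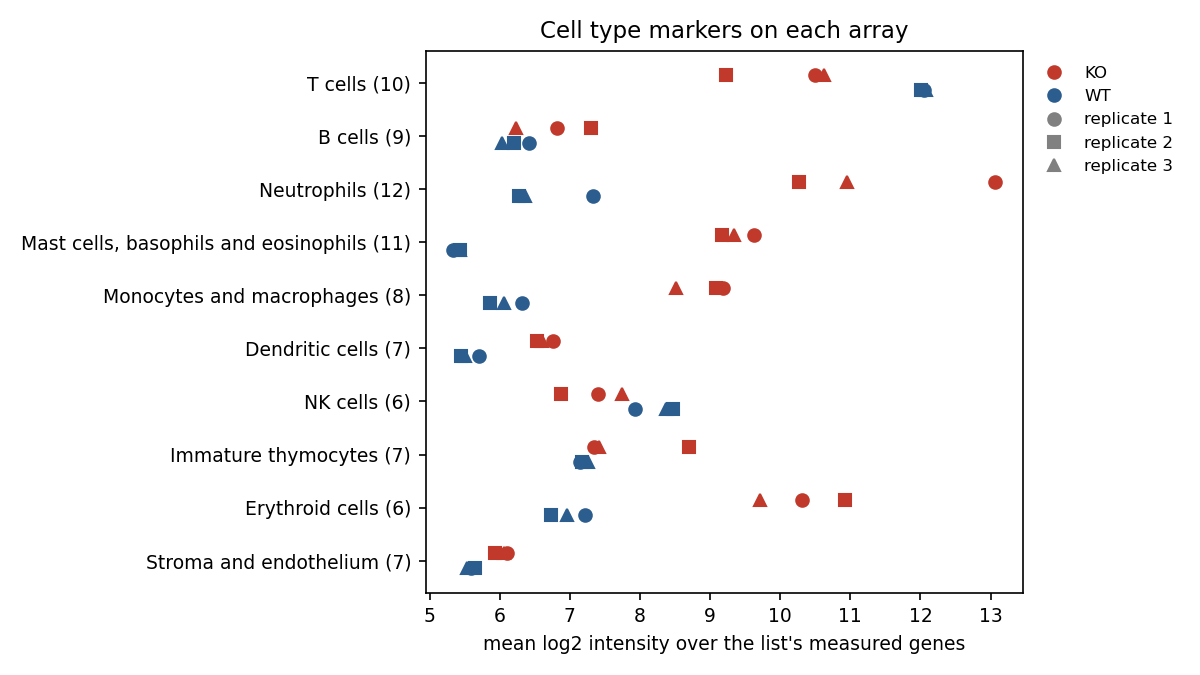
Mean log2 intensity of each cell type marker list (number of measured genes in brackets) on the 3 KO arrays (red) and the 3 WT arrays (blue), with 1 symbol per replicate number. T cell markers lay at 9.23 to 10.62 in KO and 12.01 to 12.08 in WT, and neutrophil markers at 10.27 to 13.07 in KO and 6.27 to 7.33 in WT.

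Of the homing and egress genes 7 fell on the KO arrays: Dapl1, Cxcr5, Ccr7, Gpr183, S1pr1, Cxcr3 and S1pr4. The falls were from 13.9-fold for Dapl1 to 2.62-fold for S1pr4, in bulk RNA in which the T cell markers fell too. Cxcr4 and Ccr9, each read at its brightest probe set, did not pass the test, and 0 of the 9 genes rose. Over the whole array 18.6% of genes fell and 18.6% rose. Counted by probe sets, 9 of the 14 fell, against 15.5% of all probe sets. Of the 9 genes 6 fell by at least 4-fold, against 0.770% of all genes. The median difference was -2.53 for the 9 genes and -0.06 for all genes. The limma test was used throughout, with Benjamini-Hochberg adjustment over all 45037 probe sets and a threshold of 0.05. With 3 mice a group the precision is coarse, and the smallest two-sided p of an exact permutation test over 3 and 3 arrays is 0.1.

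Ccr7, the receptor for CCL19 and CCL21, had log2 intensities of 9.08, 7.94 and 9.09 on the KO arrays, against 12.05, 11.76 and 11.67 on the WT arrays. The groups did not overlap, and even the highest KO array was well below the lowest WT array. Its difference was -3.12 ± 0.30 (SE), which is 8.70-fold lower in KO, with an adjusted p = 0.00034 (limma).

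Cxcr5, the receptor for CXCL13 that brings follicular helper T cells into B cell follicles, had 6.24, 5.19 and 6.00 in KO, against 8.56, 8.93 and 9.31 in WT. All KO arrays were near the array median, where RMA values compress differences, and all WT arrays were above it. The difference of -3.12 ± 0.29 (SE) was 8.72-fold, with an adjusted p = 3e-04 (limma).

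Cxcr3, the receptor for CXCL9, CXCL10 and CXCL11 on effector and memory T cells, had 9.99, 9.09 and 10.40 in KO, against 11.75, 12.04 and 11.96 in WT. The groups did not overlap, but KO replicate 2 was set apart from the other KO arrays. It fell by 2.09 ± 0.30 (SE), or 4.26-fold, with an adjusted p = 0.002 (limma).

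Cxcr4, the receptor for CXCL12 that holds cells in bone marrow and is made by many blood cells, had 10.76, 10.32 and 10.50 in KO, against 11.20, 10.13 and 10.94 in WT. The groups overlapped, and WT replicate 2 was the lowest of the 6 arrays. The difference was -0.23 with a 95% interval of -0.86 to 0.40 and an adjusted p = 0.56 (limma), so a fall as large as those of Ccr7, Cxcr5 and Cxcr3 lies outside the interval. Myeloid and erythroid markers were higher on the KO arrays, and their part in the Cxcr4 level was not tested.

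Ccr9, the receptor for CCL25 that directs T cells to the small intestine, was read by 3 brighter and 2 dim probe sets. The brightest, 1427419_x_at, which can cross-hybridize as its suffix marks, had 10.23, 8.57 and 10.57 in KO, against 11.38, 11.06 and 11.34 in WT. KO replicate 2 was far below the other KO arrays, and the groups did not overlap. The difference was -1.47 ± 0.47 (SE), with an adjusted p = 0.053 (limma). The brighter probe sets 1421920_a_at and 1421919_a_at differed by -1.40 and -1.52, with adjusted p = 0.054 and 0.046 (limma), so 1 of the 3 passed. Without KO replicate 2 the brightest differed by -0.86 with an adjusted p = 0.0035 (limma). The dim probe sets 1436065_at and 1442758_at differed by -0.19 and -0.42, at levels of 4.69 and 4.26 in KO and 4.88 and 4.67 in WT, below the array medians.

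Gpr183, the receptor for hydroxylated cholesterols, had 8.69, 7.71 and 8.42 at probe set 1437356_at in KO, against 11.50, 11.08 and 11.28 in WT. At its dimmer probe set 1457691_at it had 7.22, 6.08 and 7.32 in KO, against 8.52, 8.68 and 8.80 in WT. Neither probe set showed overlap between the groups. The differences were -3.01 ± 0.25 (SE, adjusted p = 0.00017, limma) and -1.79 ± 0.31 (adjusted p = 0.0044, limma), so both fell but by unequal amounts, 8.08-fold and 3.46-fold.

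S1pr1, the egress receptor, had 8.65, 7.82 and 8.83 in KO, against 11.18, 10.99 and 10.72 in WT. Every KO array was below every WT array by more than the range within either group. The fall was 5.78-fold, a difference of -2.53 ± 0.26 (SE) with an adjusted p = 0.00044 (limma).

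S1pr4, a lymphocyte receptor of the same family, had 9.72, 9.29 and 9.52 in KO, against 10.88, 10.90 and 10.91 in WT. Its WT arrays were almost identical (SD 0.015, n = 3) and its KO arrays were close together (SD 0.21, n = 3). It fell by 1.39 ± 0.12 (SE), or 2.62-fold, with an adjusted p = 2e-04 (limma), a small fall measured with a small error.

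Dapl1 had 8.42, 7.05 and 8.38 in KO, against 11.70, 11.83 and 11.72 in WT. No array of the KO group came near the WT group. The difference of -3.80 ± 0.34 (SE) was 13.9-fold with an adjusted p = 0.00025 (limma), and only 2 of the 18193 genes had a more negative difference. Counted the same way, Cxcr5 stood at rank 13, Ccr7 at 14, Gpr183 at 18, S1pr1 at 45 and Cxcr3 at 106, and at the other end Ccr9 stood at 427, S1pr4 at 477 and Cxcr4 at 4940.

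**Figure D2:**
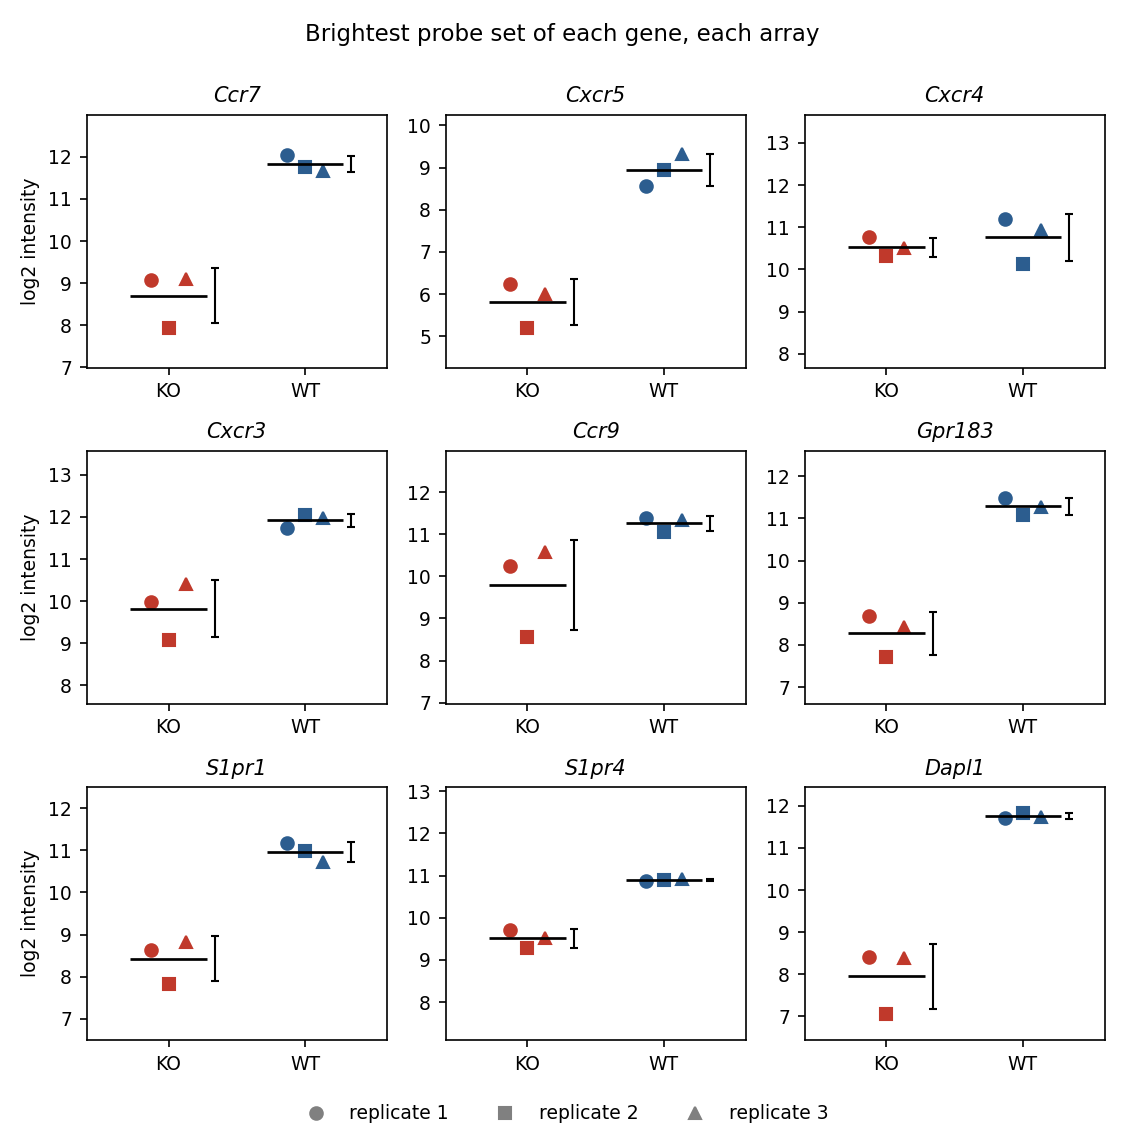
Log2 intensity of the brightest probe set of each gene on each array, KO in red on the left and WT in blue on the right, with the mean as a line and the SD as a bar (n = 3 each). Every panel spans the same number of log2 units; the groups overlap in Cxcr4 only, and KO replicate 2 is the lowest KO array in all 9 panels.

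The groups did not overlap in 8 of the 9 genes, each with KO below WT, against 29.7% of all genes with KO below WT. KO replicate 2 was the lowest KO array for 9 of 9 genes, and the median range within KO was 1.05, against 0.38 within WT. Without KO replicate 2 the differences of the 7 genes that fell were smaller, from -3.35 for Dapl1 to -1.28 for S1pr4, and without KO replicate 1 they were larger, from -4.03 for Dapl1 to -1.49 for S1pr4. All 7 passed in both cases, and leaving out each of the other arrays in turn ended no call of theirs either.

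**Figure D3:**
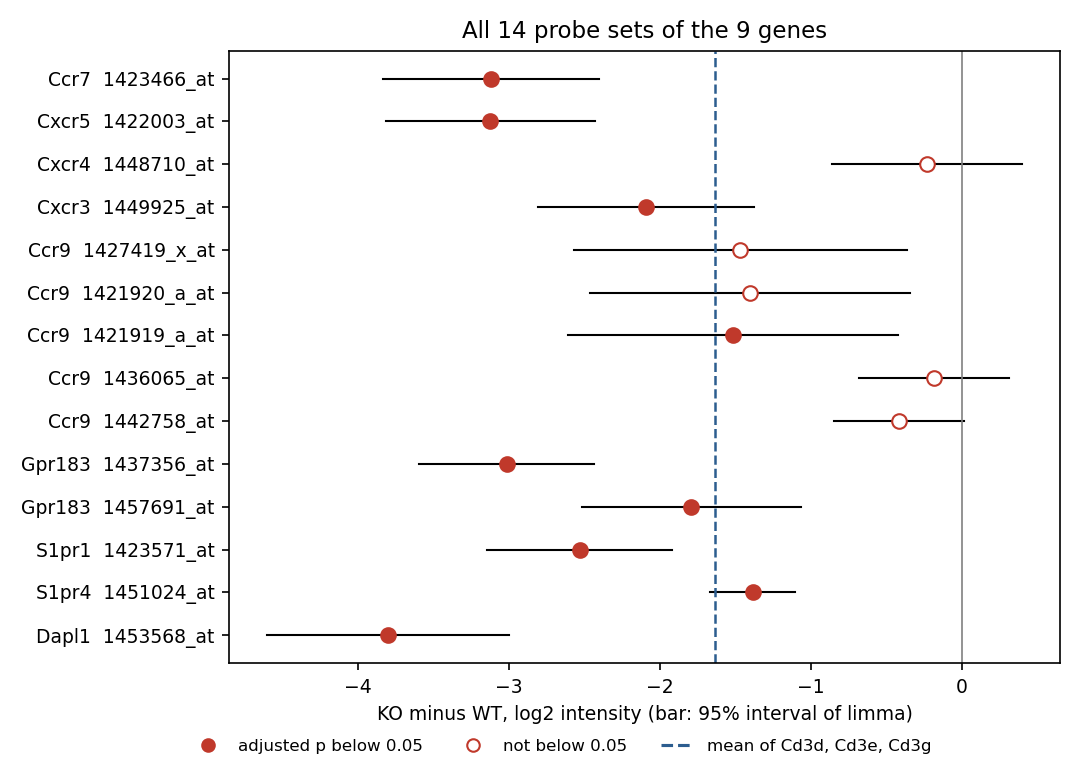
KO minus WT difference in log2 intensity of all 14 probe sets with its 95% interval (limma, n = 3 each), filled where the adjusted p is below 0.05. The dashed line marks the mean difference of Cd3d, Cd3e and Cd3g, -1.64. Ccr7, Cxcr5, Dapl1, S1pr1 and the brighter Gpr183 probe set have intervals entirely to its left. The line is drawn without its own error (SD of the CD3 mean between KO arrays 0.76), so its place beside an interval is not a test.

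The receptors were next set against the T cell receptor complex on the same array. Cd3d, Cd3e and Cd3g encode invariant CD3 chains that nearly all mature T cells carry, and they fell by 1.74, 1.66 and 1.51 (adjusted p = 0.0087, 0.012 and 0.0076, limma). Their mean was 11.42, 10.21 and 11.62 on the KO arrays, against 12.74, 12.68 and 12.74 on the WT arrays. Subtracting it raises every KO minus WT difference by the same 1.64, so the order of genes stays as it was, while each array is corrected by its own CD3 level.

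Relative to CD3, 6 of the 9 genes still had all KO arrays below all WT arrays, against 0.555% of all genes: Dapl1, Cxcr5, Ccr7, Gpr183, S1pr1 and Cxcr3. Small differences can also give this, as in Cd3d of the reference itself (-0.10). The 10 measured T cell markers had a median of -0.17 on this scale. They include Cd3d, Cd3e and Cd3g, which the subtraction itself holds close to no difference, so this median is drawn the same way. Among the markers outside the reference, Cd247 (-0.99), Trat1 (-0.70), Cd5 (-0.56) and Cd2 (-0.48) were lowest. Cd28 (-0.22), Cd6 (-0.12) and Thy1 (0.12) were highest. S1pr1 (-0.89) and Cxcr3 (-0.45) lay within the range of these markers. Ccr7 had -2.35, -2.27 and -2.52 relative to CD3 in KO, against -0.70, -0.92 and -1.07 in WT, so its KO arrays, which were 1.15 apart as intensities, came within 0.25 of each other. Dapl1 had -3.00, -3.16 and -3.24 in KO, against -1.04, -0.86 and -1.02 in WT. Both genes thus showed KO arrays of one level, with KO replicate 2 no longer set apart. Over the 9 genes the median KO range went from 1.05 to 0.59. In S1pr4 and Cxcr4 the subtraction widened it instead, from 0.43 to 1.17 and from 0.44 to 1.23. KO replicate 2 was then the highest KO array in both.

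Gpr183 at its brightest probe set had -2.73, -2.51 and -3.20 relative to CD3 in KO, against -1.25, -1.60 and -1.46 in WT. At the dimmer probe set the groups overlapped, with a difference of -0.16, so the 2 probe sets of Gpr183 disagreed here. Cxcr5 had -5.18, -5.02 and -5.61 in KO, against -4.18, -3.75 and -3.43 in WT. S1pr1 had -2.78, -2.39 and -2.79 in KO, against -1.57, -1.69 and -2.02 in WT. In both of these genes the closest KO and WT arrays were less than 1 apart. Cxcr3 had -1.44, -1.12 and -1.22 in KO, against -0.996, -0.64 and -0.78 in WT, a narrow gap without overlap.

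The differences relative to CD3, with 95% intervals from each probe set's own error (4 residual degrees of freedom), were -2.16 for Dapl1 (-2.41 to -1.91) and -1.49 for Cxcr5 (-2.27 to -0.71). They were -1.48 for Ccr7 (-1.85 to -1.12), -1.38 for Gpr183 (-2.01 to -0.75), -0.89 for S1pr1 (-1.42 to -0.37) and -0.45 for Cxcr3 (-0.84 to -0.07). Each of these 6 had p = 0.1 in the exact two-sided permutation test, the smallest it can give. S1pr4 and Ccr9 overlapped between the groups, with differences of 0.25 (-0.71 to 1.21) and 0.17 (-0.38 to 0.71). Their differences in intensity were thus near that of CD3, within wide intervals.

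Cxcr4 had -0.66, 0.11 and -1.12 relative to CD3 in KO, against -1.54, -2.55 and -1.79 in WT. It was the 1 gene of the 9 with all KO arrays above all WT arrays, by 1.40 (0.10 to 2.71). That direction was the usual one, since 95.0% of all genes had KO above WT on this scale and the median of all genes was 1.58.

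In limma's moderated fit of these values Dapl1 (adjusted p = 4.4e-05), Cxcr5 (0.0028), Ccr7 (0.0028) and Gpr183 (0.0049) fell and Cxcr4 (0.0042) rose, against 0.225% of genes that fell and 91.0% that rose. S1pr1 (0.063) and Cxcr3 (0.35) did not pass. The shared subtraction gave every probe set the same moderated SE, 0.47, so these p-values do not carry each gene's own spread. With each probe set's own standard error in limma's linear model, a choice made after seeing the data, Dapl1 alone passed (adjusted p = 0.032), against 0.0275% of genes that fell and 0.830% that rose in that fit. The other 5 genes with KO below WT stood at 0.051.

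**Figure D4:**
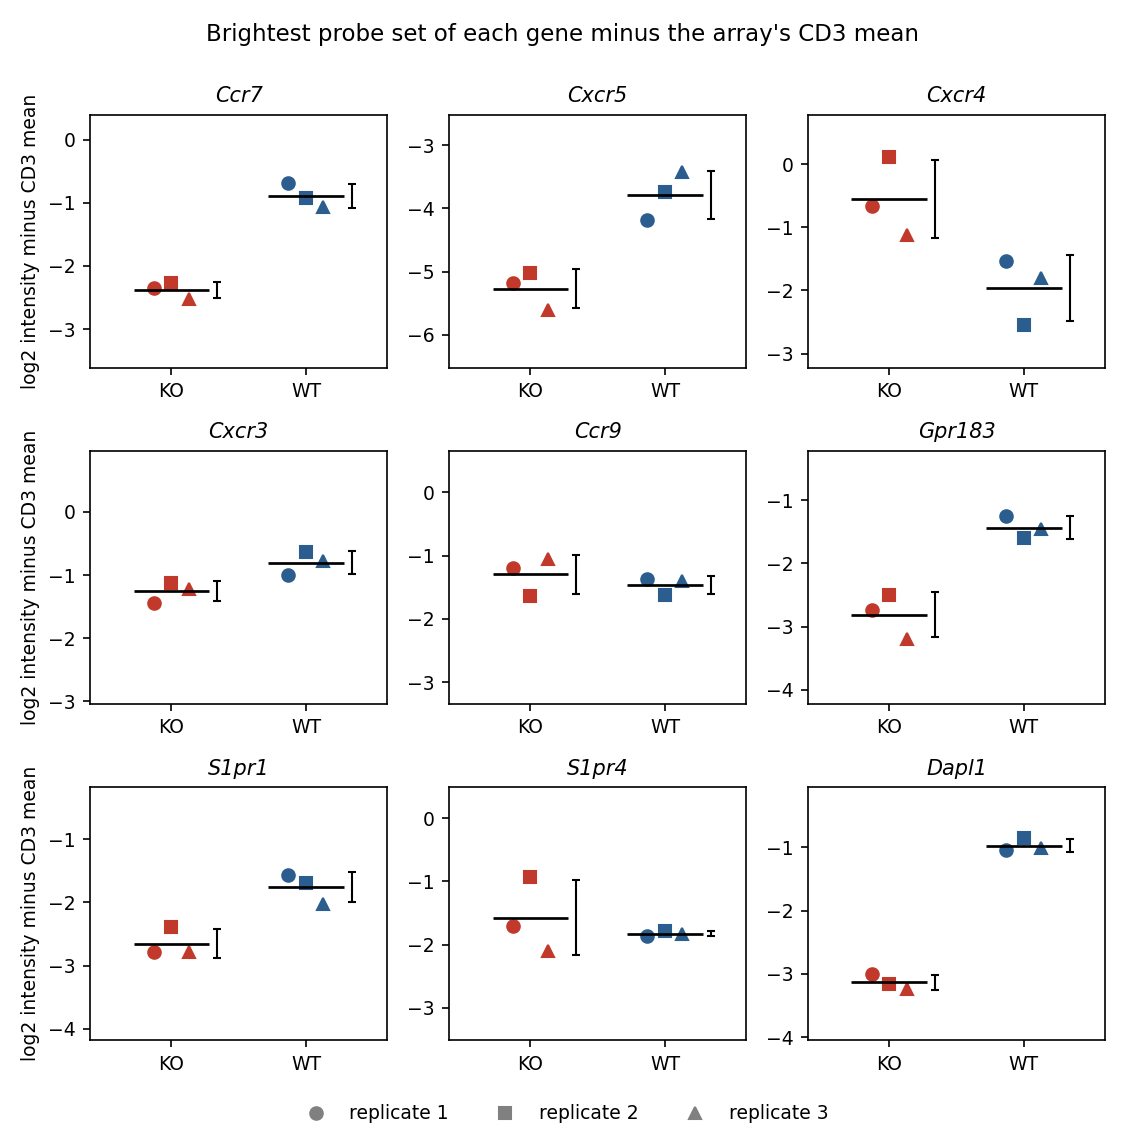
Log2 intensity of the brightest probe set minus the mean of Cd3d, Cd3e and Cd3g on the same array, KO in red on the left and WT in blue on the right, with mean and SD (n = 3 each). KO stays below WT without overlap for Ccr7, Cxcr5, Cxcr3, Gpr183, S1pr1 and Dapl1, overlaps WT for Ccr9 and S1pr4, and lies above WT for Cxcr4.

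Within the group, Ccr7 and Gpr183 had the most similar profiles over the 6 arrays. After each gene was centred on its own mean, the Euclidean distance between their 6 values was 0.40 log2 units. Among 16305 other genes the nearest to Ccr7 were Ctla4 (0.33), an inhibitory receptor of T cells, then Gpr183 (0.40), Sidt1 (0.54) and Ephx1 (0.61). The nearest to S1pr1 were Gpr18 (0.43), Card6 (0.43), Ephx1 (0.45) and Slc12a7 (0.46). Of these, Gpr18 encodes a G protein-coupled receptor and Ephx1 a microsomal epoxide hydrolase. Profiles this close to those of Ccr7 or S1pr1 must be lower in KO as well. The differences, from -3.16 for Ctla4 to -2.24 for Slc12a7, thus follow from how the genes were chosen.

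The transcription factors known to promote S1pr1 and Ccr7 were lower as well. Klf2 had 11.53, 9.82 and 11.42 in KO, against 12.91, 12.93 and 12.71 in WT, and fell by 1.93 ± 0.42 (SE, adjusted p = 0.012, limma). Foxo1 had 9.39, 9.14 and 9.22 in KO, against 11.05, 11.14 and 10.96 in WT, and fell by 1.80 ± 0.10 (adjusted p = 4.3e-05, limma). Of 4 Foxo1 probe sets 3 fell, and the dim other one, 1456529_at, differed by -0.01. Relative to CD3 the differences were -0.29 for Klf2 and -0.16 for Foxo1, and neither passed the limma test (adjusted p = 0.55 and 0.74). Ccl19 and Ccl21a had no probe set of their own in the annotation used, and the other CCR7 partners, Ackr4 and Glycam1, did not pass. The list's median difference was -0.99.

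Promoter sequences were available from RefSeq (GRCm38.p6) for 6 of the 9 genes, as the 250 bases before and the 50 after the start: Cxcr4, Cxcr3, Ccr9, Gpr183, S1pr4 and Dapl1. Ccr7, Cxcr5 and S1pr1 had none, so S1pr1 and Ccr7, the genes named above with FOXO1 and KLF2, were not searched. The 6 available sequences were searched on both strands for GTAAACA, a core of FOXO sites, and CACCC, a core of KLF sites. Matches to the cores do not overlap each other here. GTAAACA stood in 1 of the 6, Dapl1, and in 3.65% of 32851 promoters. CACCC stood in 3 of the 6 (Cxcr4, Ccr9 and S1pr4) and in 57.5% of all promoters. The promoter of the gene that fell most, Dapl1 (chr2:59484403-59484702, plus strand), is shown with its match in capitals. Beside it are those of Gpr183, which fell and holds no match to either (chr14:121965144-121965443, minus strand), and of Cxcr4, which did not pass (chr1:128592250-128592549, minus strand, CACCC in capitals).
Dapl1: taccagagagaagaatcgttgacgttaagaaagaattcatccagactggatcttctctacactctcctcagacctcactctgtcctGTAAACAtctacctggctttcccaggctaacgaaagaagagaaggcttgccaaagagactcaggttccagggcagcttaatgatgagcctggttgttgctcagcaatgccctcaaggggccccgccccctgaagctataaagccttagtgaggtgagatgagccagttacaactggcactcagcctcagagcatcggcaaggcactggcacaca
Gpr183: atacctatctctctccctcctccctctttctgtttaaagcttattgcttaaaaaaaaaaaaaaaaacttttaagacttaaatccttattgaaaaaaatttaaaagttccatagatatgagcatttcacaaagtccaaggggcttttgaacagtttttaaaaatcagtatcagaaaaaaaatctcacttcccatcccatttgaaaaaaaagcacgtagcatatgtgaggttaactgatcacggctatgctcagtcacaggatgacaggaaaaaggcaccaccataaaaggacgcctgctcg
Cxcr4: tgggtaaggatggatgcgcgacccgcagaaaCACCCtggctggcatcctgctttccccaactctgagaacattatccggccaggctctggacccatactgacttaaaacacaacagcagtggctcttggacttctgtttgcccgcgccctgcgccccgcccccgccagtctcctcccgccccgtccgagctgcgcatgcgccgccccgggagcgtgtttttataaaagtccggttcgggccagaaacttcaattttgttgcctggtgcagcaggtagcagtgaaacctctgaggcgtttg
Counted from the start, the match in Dapl1 begins at -164 and the match in Cxcr4 at -219. These are matches of letters and not measured binding sites.

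Partner genes of the receptors were taken from 6 lists that held 78 genes, of which 74 were measured. Of these 34 fell, 10 rose and 30 did not pass, with a median difference of -0.29 against -0.06 for all genes. Over all genes 18.6% fell and 18.6% rose, which is the share to set beside the counts of each list below. The genes that rose in log2 intensity lay in the S1P, oxysterol and G protein lists. Relative to CD3, in limma's moderated fit, 0 of the 74 fell and 49 rose. In that fit 0.225% of all genes fell and 91.0% rose.

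Among 13 ligands of the chemokine receptors and related receptors, 3 fell and 0 rose, with a median of -0.08. Cxcr6, a receptor of liver-homing T cells, fell by 1.69 (adjusted p = 0.0096, limma). Ccr6, the receptor for CCL20, fell by 1.28 (adjusted p = 0.00063, limma). Ccr8, which was below the array median in both groups, fell by 0.32 (adjusted p = 0.046, limma). That call was lost on leaving out any 1 array. It was also lost on repeated quantile normalization (adjusted p = 0.096, limma), centring (0.07) and with the replicate number as a block (0.084). With the arrays scaled to their hybridization controls Ccr8 differed by 0.044.

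In the S1P axis 4 of 11 genes rose and 2 fell, and the median was -0.04. S1pr3, a sphingosine-1-phosphate receptor better known from endothelium and myeloid cells, had 9.84, 10.02 and 9.83 in KO, against 4.71, 4.60 and 4.56 in WT. That is a 38.7-fold rise (adjusted p = 2.2e-06, limma), opposite to S1pr1 and S1pr4. Its other probe sets differed by 1.97 and -0.22, so they did not give one size. Mfsd2b, an S1P exporter of red cells and platelets, rose by 2.51 (adjusted p = 1e-04, limma). Sphk1, the kinase that makes S1P, rose by 2.27 (adjusted p = 0.00046, limma). The other gene that rose was Spns2, an S1P exporter known from endothelium, by 2.24 (adjusted p = 0.00017, limma), which is named after its value was seen. S1pr5, a receptor of NK cells and some effector T cells, fell by 1.47 (adjusted p = 0.0036, limma). Cd69, whose product binds S1PR1 and removes it from the surface, had 10.84, 10.60 and 10.76 in KO, against 11.98, 11.20 and 11.74 in WT. It fell by 0.91 (adjusted p = 0.011, limma), in the same direction as S1pr1. Erythroid markers (6 of 6) and neutrophil markers (10 of 12) rose on the same arrays, and their part in the rises of Mfsd2b, Sphk1 and S1pr3 was not tested.

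Of the 4 oxysterol enzymes, which make and break down GPR183 ligands, 2 rose and 1 fell, with a median of 0.52. Hsd3b7, which degrades the ligand, rose by 2.41 (adjusted p = 2e-05, limma), and Cyp27a1 rose by 1.29 (adjusted p = 0.0091, limma). Cyp7b1, which makes the ligand, fell by 0.38 (adjusted p = 0.02, limma), a call lost without WT replicate 2 (adjusted p = 0.078, limma), without WT replicate 3 (0.05) and on scaling to the hybridization controls (-0.012). Ch25h, which makes the precursor, differed by -0.25 (adjusted p = 0.15, limma). Both Cyp7b1 and Ch25h were dim in both groups, with means of 3.71 and 3.67 in KO and 4.09 and 3.92 in WT.

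In the list of G protein signalling and receptor desensitization, 11 of 23 measured genes fell and 4 rose, with a median of -0.47. Pik3r5, a subunit of the phosphoinositide kinase that these receptors activate, fell by 1.55 (adjusted p = 0.0044, limma). Grk6, a kinase that desensitizes chemokine receptors, fell by 1.26 (adjusted p = 0.00043, limma), and Rgs14, a regulator of G protein signalling, fell by 1.18 (adjusted p = 0.0034, limma). Rgs18, a regulator known from myeloid cells and platelets, rose by 3.62 (adjusted p = 1.6e-05, limma). Gnaq, a G protein alpha subunit, rose by 2.38 (adjusted p = 0.00011, limma), and Arrb1, an arrestin, rose by 0.99 (adjusted p = 0.0038, limma). The part of the higher myeloid markers in the rise of Rgs18 was not tested.

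Of 19 migration effectors that act below the receptors, 15 fell and 0 rose in log2 intensity, with a median of -0.75. Relative to CD3 the balance was the other way, with 0 that fell, 8 that rose and a median of 0.89, where the median of all genes was 1.58 and 91.0% of genes rose. Rhoh, an atypical small GTPase of blood cells, fell by 1.80 (adjusted p = 4.5e-05, limma). Rassf5, which links RAP1 to integrins, fell by 1.73 (adjusted p = 0.0011, limma), and Itgb2, the integrin beta chain of LFA-1, fell by 1.35 (adjusted p = 0.024, limma). The call of Itgb2 was lost without any 1 of the WT arrays. With the arrays scaled to their hybridization controls, which raised every difference by 0.37, 6 of the 19 effectors and 4 of the 23 signalling genes fell. The T cell markers, which lie in none of these lists, fell in 10 of 10 on the same arrays.

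**Figure D5:**
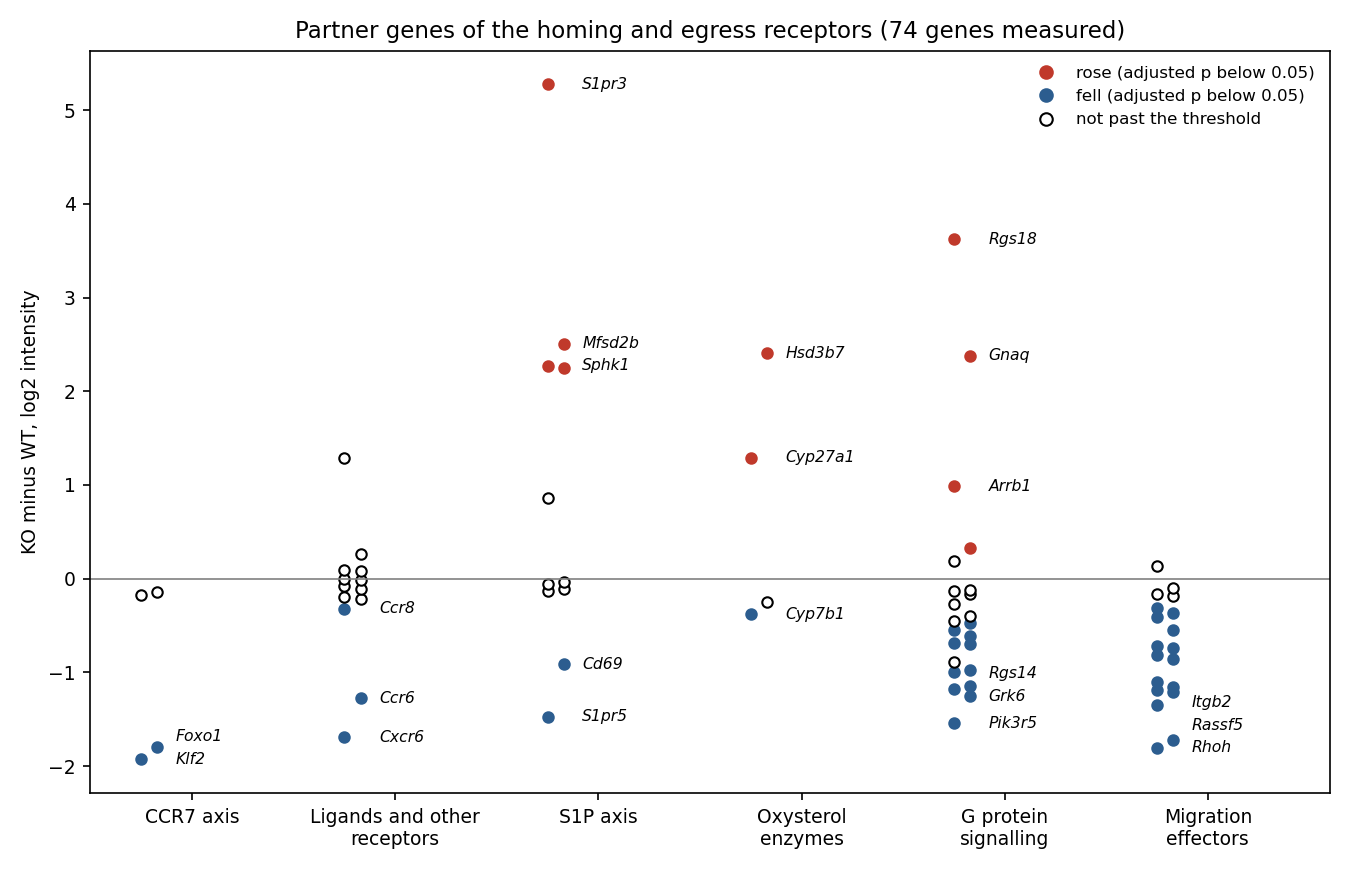
KO minus WT difference in log2 intensity of the 74 measured partner genes in 6 lists, each at its brightest probe set, in red where it rose, blue where it fell (limma adjusted p below 0.05) and open where it did not pass. S1pr3 stands highest at 5.27, and 15 of 19 migration effectors lie below 0 in blue.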

How the data were processed

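The authors deposited log2 intensities made with RMA, per the submitters' processing notes; its version is not given in the sources used here. No further normalization or filter was applied, and 0 columns of per-sample values were unused. Of 45101 probe sets 64 were array controls. Per the platform annotation, 34945 of the remaining 45037 have 1 gene and 932 several, and 9160 are not listed; 34741 were matched to the GRCm38.p6 gene table through Entrez IDs. Genotype labels set the groups, with 1 mouse per array.

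R 4.3.3 and limma 3.58.1 (lmFit, then eBayes without trend) gave two-sided p-values. Rose, fell and changed mean an adjusted p below 0.05. Each gene was read at its brightest probe set by mean over all arrays. The members, the partner and marker lists (written from general knowledge) and the tests were chosen with earlier results of these data known. Named genes were the 9 members, the CD3 genes, up to 3 largest rises and 3 largest falls past the threshold in each partner list, Klf2, Foxo1 and Cd69 (1 further gene of this rule is not reported here), and the 4 profiles nearest to Ccr7 and to S1pr1. The fit was tested on simulated data. Alternatives were a filter above the median level of 5.77, repeated quantile normalization, centring, scaling to the 18 hybridization control probe sets, a variance trend with robust fitting, weighted arrays, a block for the replicate number, a threshold of 0.1, a minimum of 1.5-fold, leaving out each array, averaging a gene's probe sets, other T cell references, and the ordinary standard error, which was added after seeing the data. RMA gives no detection call, and differences of dim probe sets come out too small. With 3 arrays a group, precision is coarse.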

Additional observations from a re-analysis of the deposited data

How the results depend on the processing

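The calls of Ccr7, Cxcr5, Cxcr3, Gpr183, S1pr1, S1pr4 and Dapl1 in log2 intensity changed under none of 15 alternatives, and Cxcr4 was called in none (-0.55 to 0.13). Ccr9 was unsettled: its brightest probe set passed with the filter (adjusted p = 0.041, limma), with centring (0.049), with the block (0.033), at a threshold of 0.1, without KO replicate 2 (0.0035) and without KO replicate 3 (0.028), and the mean of its probe sets did not (difference -0.998, adjusted p = 0.056). Leaving out 1 array at a time gave 8 to 12 member probe sets that fell (9 with all arrays), 7 to 8 genes (7), 26 to 34 partner genes that fell (34) and 9 to 11 that rose (10). The 12 came without KO replicate 3 and the 8 without KO replicate 1 or any WT array. Relative to CD3 the ranges were 4 to 6 probe sets and 4 to 6 genes that fell (4 each), 1 to 5 probe sets (3) and 0 to 2 genes (1) that rose, and 0 to 2 partner genes that fell (0) and 40 to 59 that rose (49). The 6 came without KO replicate 2, where S1pr1 (-1.03, adjusted p = 3.9e-05, limma) and Cxcr3 (-0.52, 0.0048) passed, and Cxcr4 was lost without WT replicate 2 (1.11, 0.074). With all arrays S1pr1 and Cxcr3 differed by -0.89 and -0.45, so their differences moved little. These p-values are from the moderated fit, which with all arrays gave every probe set the same SE. KO replicate 2, the array left out, had the lowest CD3 mean (10.21).

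Scaling to the hybridization controls raised every difference by 0.37 and the median of all probe sets to 0.29, in place of -0.08. Then 16 partner genes fell and 17 rose. Ccr8 (0.044) and Rap1a (0.054) lost their calls, with small differences of the other sign. Cxcl13, which had not passed (-0.008), rose by 0.36 (adjusted p = 0.039, limma). Relative to CD3, the filter left 1 member probe set that rose. With the ordinary standard error 1 probe set and 1 gene (Dapl1) fell, 0 rose, and 1 partner gene rose. With 5 other T cell genes in place of CD3, Dapl1 (-1.91), Cxcr5 (-1.24), Ccr7 (-1.23) and Gpr183 (-1.13) were called. S1pr1 (-0.64) and Cxcr3 (-0.20) were not, and their differences were smaller than with CD3 (-0.89 and -0.45). With the replicate number as a block, 11 member probe sets and 8 member genes fell, and 30 partner genes fell and 9 rose. After each group's mean was subtracted from its arrays, same-numbered KO and WT arrays correlated at 0.10, -0.24 and -0.20. Only KO replicate 1 correlated best with the WT array of its own number, and the labels name no pairing. Array weights could not be fitted relative to CD3 and were not run there. With 3 arrays a group, small differences such as that of Cxcr4 cannot be resolved.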

Other observations

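Among the partner genes that did not pass, Cxcr2 and Plpp3 had the largest positive differences. Both are named here after their values were seen. Cxcr2, a chemokine receptor of neutrophils, averaged 5.97 ± 0.98 in KO and 4.68 ± 0.08 in WT (SD, n = 3 each), with an adjusted p = 0.061 (limma). Plpp3, a lipid phosphatase that can break down S1P, averaged 6.14 ± 1.05 in KO and 5.28 ± 0.14 in WT (SD, n = 3 each), with an adjusted p = 0.21 (limma). In both genes the spread between KO mice was far wider than between WT mice.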
